A study of Mus musculus with 15 samples.

Results

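Monoamine neurons are described here by 10 genes, out of 43629 genes counted in whole mouse brain, that make, package, take up, receive or break down dopamine and serotonin. The members are listed by name and grouped here by what their proteins do. They are Th, Ddc and Tph2 for synthesis, Slc6a3, Slc6a4 and Slc18a2 for transport, Drd1 and Drd2 as receptors, and Maoa and Maob as breakdown enzymes. All 10 passed the filter on low counts, together with 15864 genes in all.

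Dopamine neurons sit mainly in the midbrain and send their axons to the striatum, where Drd1 and Drd2 mark different sets of projection neurons. Serotonin neurons sit in the raphe nuclei of the brainstem and reach nearly the whole brain. Transmitter released by either kind of neuron is taken back up by its own transporter, repacked into vesicles by Slc18a2 or degraded by the monoamine oxidases.

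RNA-seq libraries were made from whole brains of male wild-type C57BL/6J mice on 2 feeding regimens and at 2 ages, without any transgene. Young mice were 3 months old and old mice 24 months old. The controls ate ad libitum (AL), and the others were fasted intermittently, by every-other-day feeding (EOD) begun in young adulthood, in which a day of free access to food alternates with a day without. On AL food there were 4 young and 4 old mice, and on EOD food 3 young and 4 old mice. Per the study, the young mice had been on EOD only for a short time and the old mice for most of their lives. Within the EOD mice, age and time on the diet therefore cannot be told apart. The comparisons ask how the members differ with age, with diet and with both. The labels give separate mice but do not say whether their brains were dissected or extracted together.

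Libraries held between 5198748 and 13610729 counts assigned to genes, with a median of 9886766. Neuronal markers were high in every brain (summed level 5930 to 7730 CPM, counts per 1000000 counts of the library). Some libraries stood apart. Young/AL mouse 3 had counts for 17280 genes, against 19054 to 20880 in the others, and a median correlation with the other mice of 0.9573, against 0.9801 to 0.9873. Old/AL mouse 4 stood out in pituitary transcripts, with a summed level of 1030 CPM for 8 pituitary marker genes, against at most 17.0 CPM in any other mouse. Gh alone was at 888 CPM in old/AL mouse 4. This mouse was also lowest in hindbrain and brainstem markers, at 0.252 CPM against 2.49 to 19.8 CPM in the others. Old/EOD mouse 2 was highest in hindbrain markers (19.8 CPM) and blood markers (101 CPM). Old/AL mouse 3 was highest in cerebellar markers (131 CPM).

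The starts of 4 members are shown because their transcripts varied most from brain to brain, Th and Slc6a3 for dopamine neurons and Tph2 and Slc6a4 for serotonin neurons. Each run is 300 bases, from 250 before to 50 after the RefSeq transcription start, in the sense of the gene (build GRCm38.p6). The windows are chr7:142899946-142900245 on the minus strand for Th, chr13:73536497-73536796 on the plus strand for Slc6a3, chr10:115184973-115185272 on the minus strand for Tph2 and chr11:76998347-76998646 on the plus strand for Slc6a4. Capitals mark matches, on either strand, to TGACGTCA (the cAMP response element), GGGCGG (the GC box) or TATAAA (the TATA box).
Th: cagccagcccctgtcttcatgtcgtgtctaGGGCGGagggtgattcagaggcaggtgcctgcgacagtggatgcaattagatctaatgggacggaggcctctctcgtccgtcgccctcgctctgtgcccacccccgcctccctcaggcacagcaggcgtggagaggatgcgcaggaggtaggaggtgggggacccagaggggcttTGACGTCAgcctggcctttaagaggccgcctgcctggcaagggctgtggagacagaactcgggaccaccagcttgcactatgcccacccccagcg
Slc6a3: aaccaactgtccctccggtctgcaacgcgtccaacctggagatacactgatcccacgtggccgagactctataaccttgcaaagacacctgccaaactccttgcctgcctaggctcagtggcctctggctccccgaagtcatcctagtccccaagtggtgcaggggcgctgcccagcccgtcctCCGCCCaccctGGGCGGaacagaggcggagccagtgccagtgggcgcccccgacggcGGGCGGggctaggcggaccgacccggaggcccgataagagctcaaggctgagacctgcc
Tph2: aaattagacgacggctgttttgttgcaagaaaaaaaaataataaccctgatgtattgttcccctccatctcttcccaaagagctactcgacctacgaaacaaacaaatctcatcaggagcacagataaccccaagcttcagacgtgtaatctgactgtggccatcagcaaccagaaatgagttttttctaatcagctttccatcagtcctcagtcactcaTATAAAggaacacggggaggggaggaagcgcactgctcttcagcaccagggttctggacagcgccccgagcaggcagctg
Slc6a4: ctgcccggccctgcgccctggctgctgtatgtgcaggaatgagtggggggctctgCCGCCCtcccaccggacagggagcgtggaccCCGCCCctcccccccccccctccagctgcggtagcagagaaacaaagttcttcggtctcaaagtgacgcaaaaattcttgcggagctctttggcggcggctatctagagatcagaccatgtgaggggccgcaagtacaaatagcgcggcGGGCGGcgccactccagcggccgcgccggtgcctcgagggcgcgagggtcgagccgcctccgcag
The cAMP response element began 45 bases before the Th start, and was held by 2 of the 9 members with a RefSeq promoter, Th and Slc18a2, against 1.79% of 32851 promoters. A TATA box began 30 bases before the Tph2 start. It was found in 2 members, Tph2 and Ddc, and in 13.6% of all promoters. GC boxes were found in 7 members, Slc6a3, Slc6a4 and Th among them, and in 35.7% of all promoters. The Tph2 window was 47.3% G or C and held none of the GC boxes seen in the Slc6a4 window, which was 67.7% G or C. No matches overlapped, and a match is a description of these letters, not evidence of a bound site.

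Levels of the members can be set side by side only per length, here that of all annotated exons of a gene. Their order therefore depends partly on the annotation. On the scale of CPM per kilobase of exon, averaged over the 15 mice, Maob (15.9) and Maoa (15.3) were at the top, followed by Drd1 (13.3) and Drd2 (11.4). The vesicular transporter Slc18a2 was at 7.68, Th at 6.62, Slc6a3 at 6.57 and Ddc at 5.63. The serotonin genes were lowest, with Tph2 at 4.51 and Slc6a4 at 1.08 CPM per kilobase. The ranges over mice of all neighbours in this order overlapped, although Tph2 exceeded Slc6a4 in 15 of 15 mice. At library depth the least counted member was Slc6a4, with 1 to 122 counts per mouse, and the most counted was Maoa, with 303 to 1036.

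**Figure D1:**
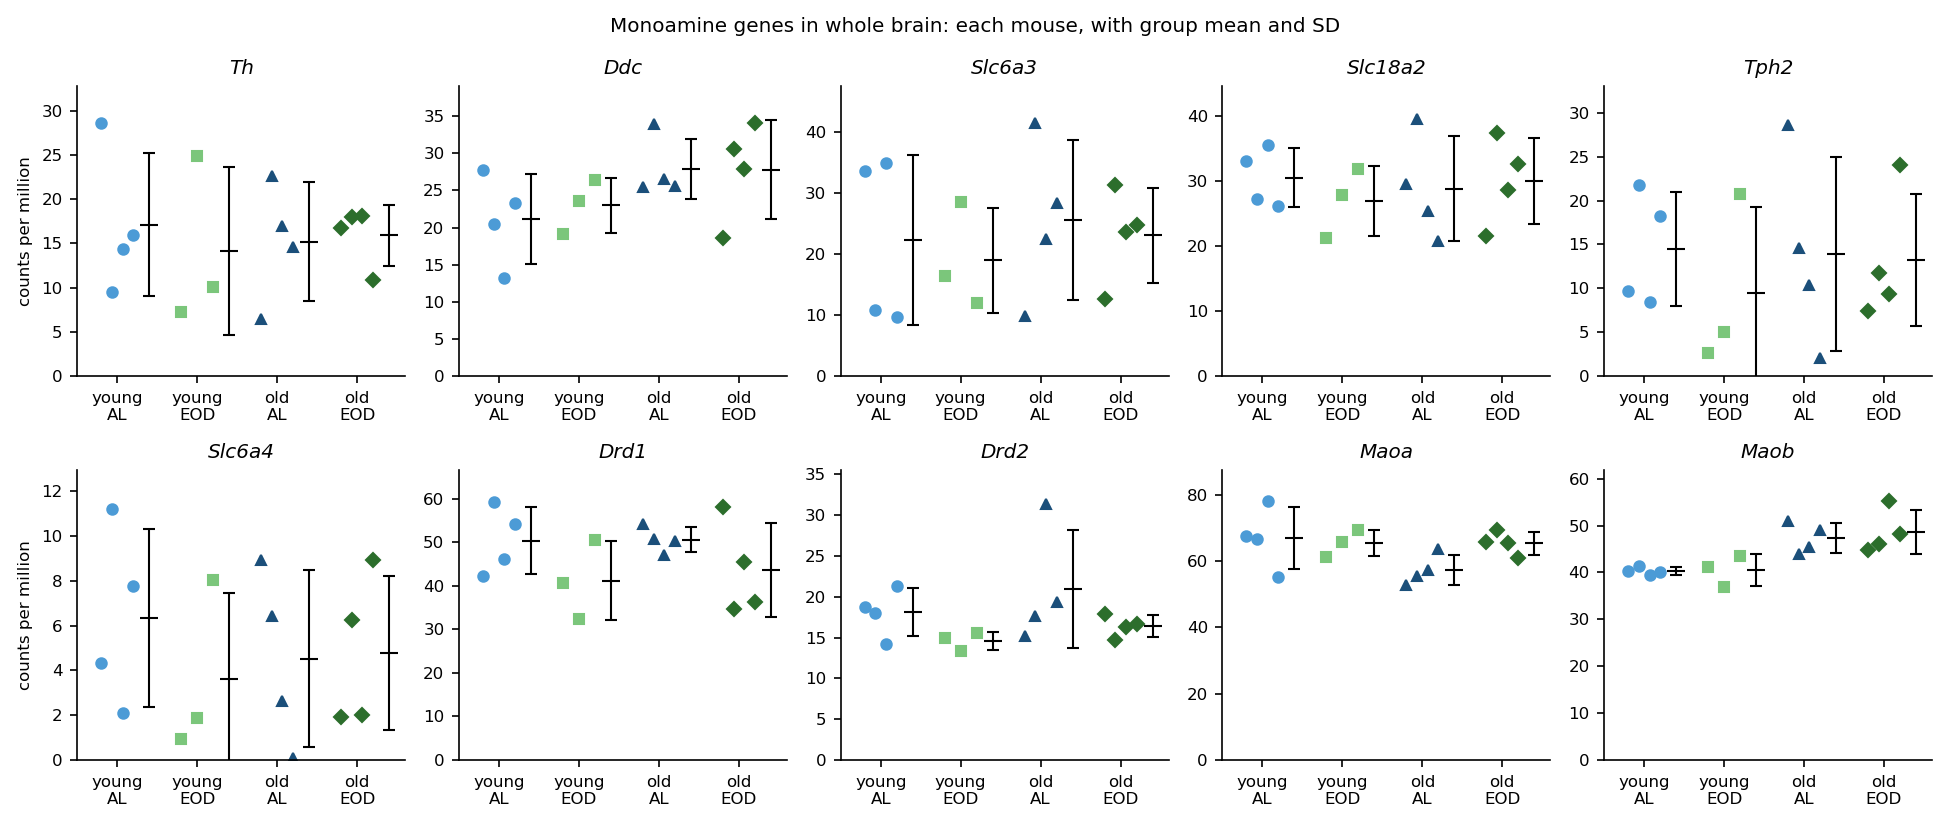
Level of each member in each of the 15 mice, in CPM, by group. Symbols are mice, and the bar at the right of each group is the mean with the SD (cut at 0 where the SD exceeds the mean). Slc6a4 ranges from 0.0841 to 11.2 CPM, while all 8 old mice lie above all 7 young mice for Maob.

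The members differed widely in how far brains of the same group lay apart. The within-group SD on the log2 CPM scale was 1.53 for Slc6a4, 1.14 for Tph2, 0.798 for Slc6a3 and 0.675 for Th. Among genes within 0.5 log2 CPM of the same level, 99.9%, 99.9%, 99.8% and 99.7% had a smaller SD. The oxidases, which many cell types make, varied less, with 0.134 for Maoa and 0.103 for Maob, where 53.9% and 13.8% of genes of like level had a smaller SD. Ddc (0.34), Slc18a2 (0.317), Drd2 (0.278) and Drd1 (0.255) lay between. In whole-brain RNA, fewer cells of a type in the piece extracted and less RNA per cell cannot be told apart.

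Th, on chromosome 7 (142892752 to 142931128), encodes tyrosine hydroxylase, the rate-limiting enzyme of dopamine and noradrenaline synthesis. It was at 28.6, 9.53, 14.4 and 15.9 CPM in the young/AL mice and at 7.19, 24.9 and 10.1 CPM in the young/EOD mice. In the old/AL mice it was at 6.47, 22.6, 17.0 and 14.6 CPM, and in the old/EOD mice at 16.7, 18.0, 18.1 and 10.8 CPM. The groups overlapped throughout, and the lowest and the highest mouse differed 4.42-fold. Averaged over diets, old mice differed from young by 0.03 on the log2 scale (95% interval -0.51 to 0.58), and averaged over ages EOD mice differed from AL mice by -0.12 (-0.67 to 0.43). Leaving out 1 mouse at a time gave -0.14 to 0.36 with age and -0.45 to 0.05 with diet. The ends 0.36 and -0.45 were those without young/EOD mouse 2. Neither difference passed the test, and with this spread between mice changes within the 95% intervals remain compatible with the data.

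Ddc, on chromosome 11 (11814101 to 11898144), encodes the decarboxylase that completes both dopamine and serotonin synthesis. It was at 27.7, 20.5, 13.2 and 23.3 CPM in young/AL and at 19.1, 23.6 and 26.4 CPM in young/EOD mice. Values were 25.5, 34.0, 26.5 and 25.6 CPM in old/AL and 18.6, 30.6, 27.9 and 34.1 CPM in old/EOD mice. Most old mice lay above most young mice, but the ranges overlapped, with young mice at up to 27.7 CPM and an old mouse at 18.6 CPM. Under AL feeding the mean went from 21.2 ± 6.08 CPM (SD, n = 4) in the young to 27.9 ± 4.1 CPM (SD, n = 4) in the old. The lowest young/AL value, 13.2 CPM, was that of mouse 3, whose library stood apart. The log2 difference under AL was 0.41 with all mice and 0.24 to 0.56 on leaving out 1 mouse at a time. Averaged over diets the old mice differed by 0.34 on the log2 scale (SE 0.142, edgeR FDR 0.332), which did not pass the threshold of 0.1. Ddc passed it only without the filter on low counts (FDR 0.0233 averaged over diets, and 0.0917 in AL mice). A gene on the opposite strand, 1700042O10Rik, overlaps Ddc, and reads were counted by strand.

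Slc6a3, on chromosome 13 (73536747 to 73578672), encodes the dopamine transporter, which takes dopamine back into the neuron that released it. Young/AL mice had 33.7, 10.8, 35.0 and 9.62 CPM, and young/EOD mice had 16.4, 28.5 and 12 CPM. Among old mice the AL group had 9.82, 41.6, 22.5 and 28.4 CPM, and the EOD group had 12.6, 31.4, 23.7 and 24.7 CPM. Low and high brains occurred in every group, and 4 of the 5 mice sequenced on lane 1 were at 16.4 CPM or below. That cut is the value of 1 of them, young/EOD mouse 1. Young/EOD mouse 3 on lane 2 (12 CPM) and young/AL mouse 4 on lane 3 (9.62 CPM) also lay below it. A difference between lanes was not tested. Old mice differed from young by 0.26 (95% interval -0.37 to 0.88) and EOD from AL mice by -0.21 (-0.83 to 0.42), both on the log2 scale and neither past the threshold.

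Slc18a2, on chromosome 19 (59260878 to 59296012), encodes the vesicular transporter that loads dopamine, serotonin and noradrenaline alike. It was at 33.0, 27.2, 35.5 and 26.2 CPM in young/AL mice and at 21.2, 27.9 and 31.8 CPM in young/EOD mice. Levels in old mice were 29.5, 39.6, 25.3 and 20.7 CPM under AL, and under EOD 21.6, 37.3, 28.6 and 32.6 CPM. The groups overlapped, and the range over mice was 1.92-fold, less than that of Th, Slc6a3, Tph2 or Slc6a4, which each mark only some of the neurons that use it. The differences were 0.04 with age (95% interval -0.25 to 0.32) and -0.06 with diet (-0.34 to 0.22), log2 scale. The overlapping gene Gm29261 lies on the other strand.

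Tph2, on chromosome 10 (115078641 to 115185022), encodes the tryptophan hydroxylase of brain serotonin neurons. Young/AL mice had 9.64, 21.8, 8.46 and 18.2 CPM, and young/EOD mice had 2.67, 4.99 and 20.8 CPM. Old/AL mice had 28.6, 14.6, 10.4 and 2.1 CPM, and old/EOD mice had 7.45, 11.7, 9.39 and 24.1 CPM. Both the highest and the lowest of the 15 brains were old/AL mice, 13.6-fold apart. The fitted differences were 0.2 with age (95% interval -0.67 to 1.07) and -0.34 with diet (-1.22 to 0.53), log2 scale. Leaving out 1 mouse at a time gave -0.14 to 0.88 with age and -1.03 to -0.0 with diet. The ends 0.88 and -1.03 were those without young/EOD mouse 3, also uncalled.

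Slc6a4, on chromosome 11 (76998603 to 77032340), encodes the serotonin transporter, the target of many antidepressants. It was at 4.34, 11.2, 2.12 and 7.78 CPM in young/AL mice and at 0.924, 1.89 and 8.02 CPM in young/EOD mice. Old/AL mice had 8.95, 6.43, 2.65 and 0.0841 CPM, and old/EOD mice had 1.93, 6.26, 2.03 and 8.95 CPM. Within each group the mice fell in the same order for Slc6a4 as for Tph2, and the groups overlapped. Old/AL mouse 4 had 1 count against 122 in young/AL mouse 2, a ratio of 133 in CPM whose 95% exact counting interval ran from 23.4 to 5290. Old and young mice differed by -0.06 on the log2 scale (95% interval -1.16 to 1.05), and EOD and AL mice by -0.37 (-1.47 to 0.74). Leaving out 1 mouse at a time gave -0.37 to 0.66 with age and -1.08 to -0.05 with diet. The ends 0.66 and -1.08 were those without young/EOD mouse 3. The 95% intervals of Slc6a4 are the widest of the 10 members, and differences within them remain compatible with the data.

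Within groups, Tph2 and Slc6a4 had the highest correlation of the 45 pairs of members. Deviations of log2 CPM from the group mean gave Pearson's r = 0.96 and Spearman's rho = 0.95 over the 15 mice. The permutation p was 1e-05 for each, the smallest that 100000 draws within groups allow, and 0.00045 after adjustment over the 45 pairs of members (Benjamini-Hochberg, two-sided). Without the 2 mice farthest from the Tph2 median r was 0.92, leaving out any 1 mouse gave 0.94 to 0.97, and with lane means removed as well r was 0.97. The ratio of Tph2 to Slc6a4 counts was 1.87 to 4.64 in 14 of the mice and 25.0 in old/AL mouse 4, where 25 counts stood against 1 (95% exact counting interval 4.09 to 1030). Among 13984 candidate genes (average log2 CPM 1 or more), each of the pair was the gene most like the other. The next in likeness to Tph2 were Znrd1 (r = 0.84) and Dcun1d2 (0.82), and to Slc6a4 Mrap2 (0.85) and Dcun1d2 (0.83).

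**Figure D2:**
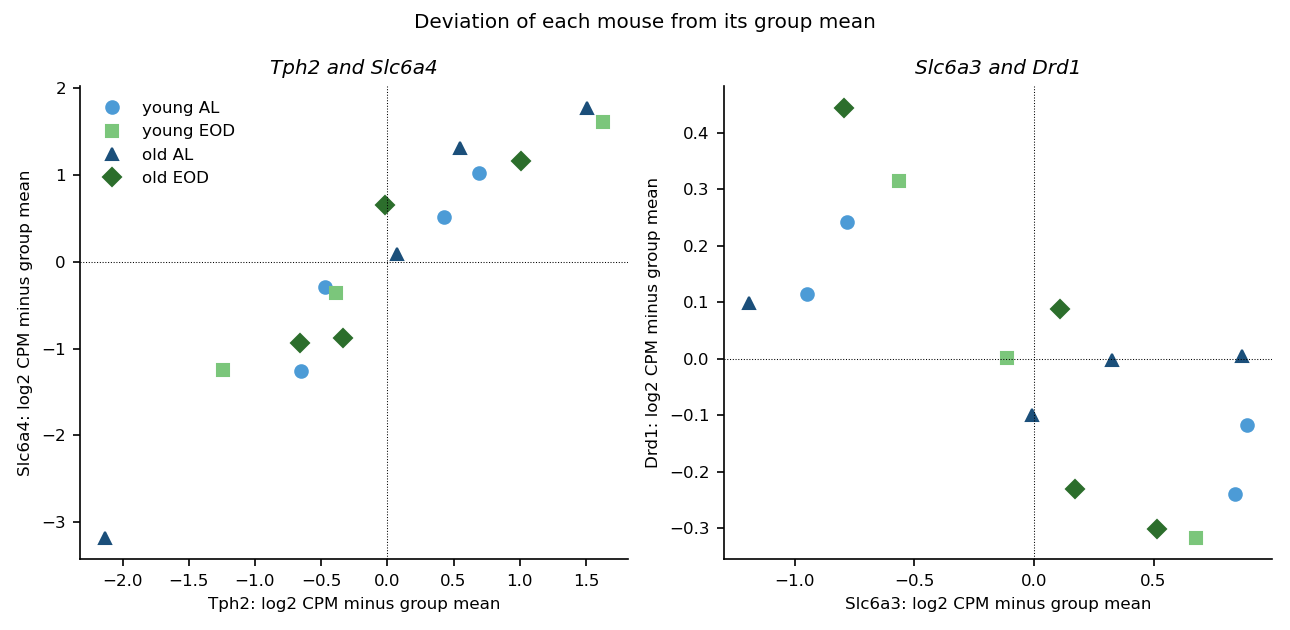
Deviation of each of the 15 mice from its group mean, in log2 CPM, for Tph2 against Slc6a4 and for Slc6a3 against Drd1. Symbols are mice by group. The serotonin pair lies along a rising line (r = 0.96), with old/AL mouse 4 at the lower end, and 5 mice form the upper left of the other plot.

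Correlations among the dopamine genes were lower. Th and Slc6a3 gave r = 0.66 and rho = 0.58 (permutation p = 0.0234 and 0.0482, adjusted over the 45 pairs 0.351 and 0.405), with r = 0.58 without the 2 mice farthest from the Th median. Th with Slc18a2 gave r = 0.24, Th with Ddc 0.3 and Slc6a3 with Slc18a2 0.47, none past adjustment. Th and Tph2 gave r = -0.33 (adjusted permutation p = 0.711). The gene most like Slc6a3 was Chrna6 (r = 0.90), which encodes a nicotinic receptor subunit of midbrain dopamine neurons. It remained the most alike without young/AL mouse 3 (r = 0.89). Dand5 and Ccpg1 followed for Slc6a3 (both 0.85). For Th the most alike were Kat6b (0.93), Heyl (0.88) and Abcc9 (0.82). For Slc18a2 they were Polq (0.90), 3110039I08Rik (0.83) and Mccc1os (0.82). For Ddc they were Arl6ip6 and Tmem150c (both 0.88) and Klhl1 (0.85), and gave 0.79, 0.79 and 0.74 without young/AL mouse 3. These likenesses are the highest of 13984 candidates and carry no test.

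A second pair passed adjustment, Slc6a3 with Drd1, which was chosen for description after its value was seen. It gave r = -0.74 (permutation p = 0.00107, adjusted 0.0241) and rho = -0.74 (permutation p = 0.00359, adjusted 0.0808), and r was -0.82 without the 2 mice farthest from the Slc6a3 median. With lane means removed r was -0.68, and without any 1 mouse it ran from -0.80 to -0.70. In 5 mice Slc6a3 was between 0.56 and 1.19 below the group mean on the log2 scale, and all 5 had Drd1 above the group mean. Of the 5, 3 were sequenced on lane 1. Among the other 10 mice r was -0.42 (exact permutation p = 0.403, 144 arrangements). The 5 were set apart by their Slc6a3 values, so fewer mice and a narrower range remained. An inverse relation apart from these 5 was therefore not shown. The most similar gene to Drd1 was Tac1 (r = 0.89), a neuropeptide gene of the striatal neurons that carry Drd1, followed by Ptprv (0.85) and Rpia (0.84). Without young/AL mouse 3 Tac1 again gave 0.89 but ranked 5 among the candidates.

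Drd1, on chromosome 13 (54051186 to 54055658), encodes the D1 receptor. It was at 42.3, 59.2, 46.1 and 54.1 CPM in young/AL mice and at 40.6, 32.5 and 50.5 CPM in young/EOD mice. In old mice it was at 54.1, 50.7, 47.1 and 50.4 CPM under AL and at 58.2, 34.6, 45.4 and 36.4 CPM under EOD. The lowest brains, at 32.5, 34.6 and 36.4 CPM, were all from EOD mice, but the ranges of the diets overlapped at both ages. In the young, AL mice averaged 50.4 ± 7.65 CPM (SD, n = 4) against 41.2 ± 9.0 CPM (SD, n = 3) under EOD. In the old, these averages were 50.6 ± 2.86 CPM (SD, n = 4) against 43.6 ± 10.8 CPM (SD, n = 4). Averaged over ages the difference with diet was -0.25 on the log2 scale (SE 0.11, 95% interval -0.48 to -0.02, edgeR FDR 0.983). With age it was 0.04 (-0.19 to 0.27).

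Drd2, on chromosome 9 (49340662 to 49407214), encodes the D2 receptor, which is also the autoreceptor of dopamine neurons. Young/AL mice had 18.8, 18.0, 14.2 and 21.3 CPM, and young/EOD mice had 14.9, 13.4 and 15.6 CPM. The old/AL group had 15.2, 17.6, 31.4 and 19.3 CPM, and the old/EOD group 17.9, 14.7, 16.3 and 16.7 CPM. Old/AL mouse 3 was far above the rest, and the diets overlapped at both ages. Averaged over ages the difference with diet was -0.31 (SE 0.129, 95% interval -0.58 to -0.04, edgeR FDR 0.983). In old mice it was -0.32 with all mice and -0.08 without old/AL mouse 3. Within groups Drd1 and Drd2 gave r = 0.14 (adjusted permutation p = 0.764), and the genes most like Drd2 were Pglyrp1 (0.91), Fam110b (0.90) and Taf1c (0.88), which ranked 2, 4 and 6 without young/AL mouse 3.

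Maoa, on the X chromosome (16619698 to 16687818), encodes the oxidase that prefers serotonin and noradrenaline. Young/AL mice had 67.5, 66.7, 78.3 and 55.3 CPM, and young/EOD mice had 61.4, 65.9 and 69.3 CPM. Old/AL mice had 52.8, 55.5, 57.3 and 63.6 CPM, and old/EOD mice had 65.7, 69.4, 65.5 and 61.0 CPM. Old/AL mice held the lowest value of all and overlapped every other group. Their difference from young/AL mice was -0.22 on the log2 scale (SE 0.0953, edgeR FDR 0.458), and that of old/EOD from young/EOD mice was -0.00186 (95% interval -0.22 to 0.21). The interaction of age and diet was 0.22 (-0.07 to 0.51, edgeR FDR 1.0), so the age differences on the diets were not shown to differ.

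Maob lies beside Maoa on the X chromosome (16709282 to 16817366), on the opposite strand, and encodes the oxidase found in astrocytes and serotonin neurons. It was at 40.3, 41.4, 39.5 and 40.1 CPM in young/AL mice and at 41.2, 36.8 and 43.5 CPM in young/EOD mice. Old/AL mice had 50.9, 44.0, 45.4 and 49.0 CPM, and old/EOD mice had 44.7, 46.0, 55.3 and 48.3 CPM. Every old mouse was above every young mouse, as for 0.75% of the genes tested. Under AL the mean was 40.3 ± 0.798 CPM (SD, n = 4) in the young against 47.3 ± 3.18 CPM (SD, n = 4) in the old. Under EOD it was 40.5 ± 3.4 CPM (SD, n = 3) against 48.6 ± 4.74 CPM (SD, n = 4). Averaged over diets Maob rose by 0.25 on the log2 scale with age (SE 0.0652, 1.19-fold, 95% interval 1.08 to 1.3, edgeR FDR 0.0633). On its own neither diet passed the threshold, with 0.23 in AL mice (FDR 0.362) and 0.26 in EOD mice (FDR 0.706), and the interaction was 0.03 (95% interval -0.24 to 0.3). With diet Maob differed by 0.02 (-0.11 to 0.16). Within groups Maoa and Maob gave r = -0.04 (adjusted permutation p = 0.929). The genes most like Maoa were Rhobtb1 (0.89), Tceal5 (0.87) and Rasgef1c (0.86), and those most like Maob were Mettl2 (0.87), Ccdc58 (0.86) and Rbm34 (0.84). Without young/AL mouse 3 the genes named for Maoa gave 0.83, 0.78 and 0.76 and ranked 5, 20 and 28, and Mettl2 ranked 5 for Maob.

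The age difference of Maob kept its direction in all 23 alternatives, with sizes of 0.22 to 0.27, and passed the threshold in 14. DESeq2 gave an FDR of 0.0203 and limma-voom with sample weights 0.0656. It was lost with the replicate number as a block (0.126) and with lane as a covariate (0.186), and did not pass an FDR of 0.05. It was also lost on leaving out young/EOD mouse 1 (0.144) or 2 (0.216), old/AL mouse 1 (0.125) or 4 (0.11), or old/EOD mouse 3 (0.116) or 4 (0.107). Without young/AL mouse 3 the FDR was 0.0671. Old and young means were 47.8 and 40.9 CPM on lane 1, 45.1 and 39.9 on lane 2, and 50.9 and 40.1 on lane 3, which held 1 young mouse. The absence of overlap within a lane follows from that over all mice and is no separate check of lane. Of 5 astrocyte markers 1 was called with age, Gfap, at 131 to 174 CPM in young and 283 to 403 CPM in old mice. Over the 5 markers the median log2 difference was -0.02, with 2 higher and 3 lower in old mice. Their summed level was 1380 to 1610 CPM in young and 1590 to 1790 CPM in old mice, and without Gfap 1230 to 1450 and 1220 to 1400 CPM. No astrocyte marker was at 0 in any mouse, and the part of astrocytes in the difference of Maob was not tested.

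**Figure D3:**
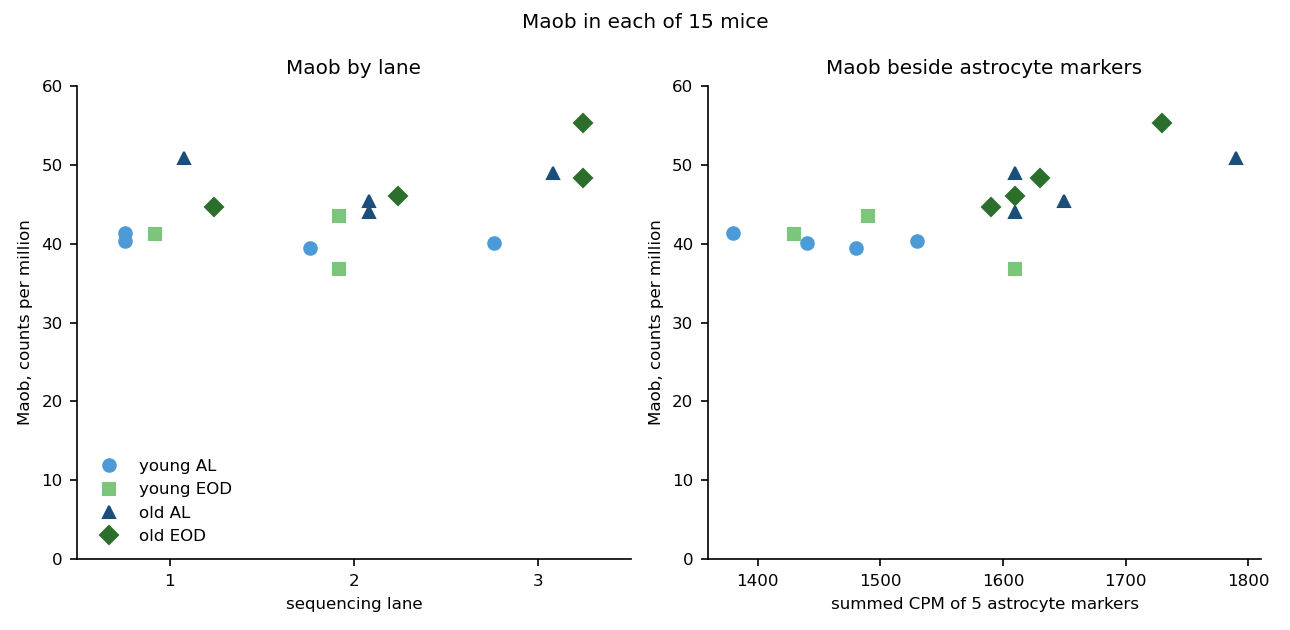
Maob in each of the 15 mice in CPM, by sequencing lane (left) and against the summed CPM of 5 astrocyte markers (right). Symbols are mice by group. Over all lanes, and therefore on each, old mice lie above young mice, between 44.0 and 55.3 CPM against 36.8 to 43.5 CPM.

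Over all members, 1 of 10 passed an FDR of 0.1 in old against young mice averaged over diets, where 2.3% of all genes tested passed. None passed in old/AL against young/AL (1.09% of all genes) or old/EOD against young/EOD (0.29%). None passed for diet at either age or averaged over ages, nor for the interaction, and 0% of all genes passed in each of these. DESeq2 and limma-voom also called none of the members in these comparisons. At an unadjusted edgeR p under 0.05 there were 2 members higher (Ddc and Maob) and 1 lower (Maoa) in old/AL against young/AL, where 9.52% of genes had such a p. In old/EOD against young/EOD there was 1, Maob (5.74% of genes), and averaged over diets there were 2, Ddc and Maob (11.7%). For diet there were 0 members at the young age (4.14%), 0 at the old age (2.58%) and 2 over both ages, Drd1 and Drd2, both lower in EOD mice (4.51%). For the interaction there were 0 (2.28%). The median difference over the members was 0.109 with age, against -0.00491 over all genes, and -0.164 with diet, against 0.000373.

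**Figure D4:**
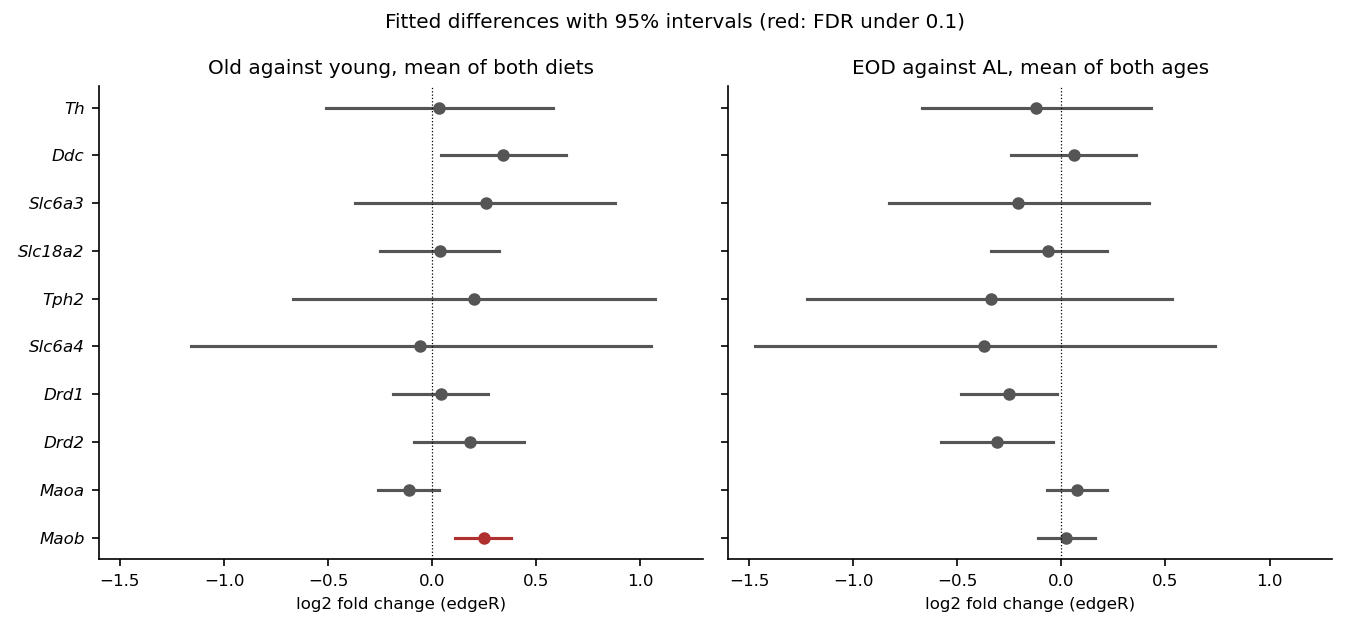
Fitted log2 fold change of each member (points) with its 95% interval (lines), for old against young and EOD against AL mice. Red marks an edgeR FDR under 0.1, reached by Maob with age (0.25). The intervals of Tph2 and Slc6a4 are the widest.

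Around the members stand 88 further genes of monoamine biology in 9 lists, of which 71 passed the filter on low counts. By edgeR 1 of the 71 passed an FDR of 0.1 in any of the comparisons, Qdpr. It passed for age averaged over diets, as did 2.3% of all genes tested. Qdpr encodes the enzyme that recycles the tetrahydrobiopterin cofactor of Th and Tph2. Under AL Qdpr was at 194 ± 7.64 CPM (SD, n = 4) in the young against 226 ± 15.4 CPM (SD, n = 4) in the old. Under EOD it was at 185 ± 7.77 CPM (SD, n = 3) against 209 ± 10.2 CPM (SD, n = 4). The ranges of old and young mice overlapped slightly, since young/AL mouse 4 (202 CPM) lay above old/EOD mouse 1 (201 CPM). Qdpr rose by 0.2 on the log2 scale with age averaged over diets (SE 0.0479, edgeR FDR 0.0393). The FDR was 0.117 with lane as a covariate and 0.147 without young/EOD mouse 2. Mbp, the 1 called of 5 oligodendrocyte markers, rose with age too. It was at 1510 to 2140 CPM in young and 2050 to 2730 CPM in old mice. Over the 5 markers the median log2 difference was 0.0478, with 4 higher and 1 lower in old mice. Their summed level, Mbp included, was 5030 to 5980 CPM in young and 5660 to 6580 CPM in old mice. Their part in the difference of Qdpr was not tested. Pts, which acts earlier in making the cofactor, differed by -0.09 (95% interval -0.28 to 0.11).

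Noradrenaline neurons left few reads in these brains. Slc6a2, the noradrenaline transporter, and Dbh, the enzyme that makes noradrenaline from dopamine, had 72 and 45 counts in old/EOD mouse 2 and at most 16 and 12 in any other mouse. That brain was also the one highest in hindbrain markers, and its Th (18.0 CPM) lay within the range of the other mice. In 6 of 15 mice Slc6a2 had no count. With diet averaged over ages Slc6a2 differed by 3.39 on the log2 scale (95% interval 1.17 to 5.61) and Dbh by 1.78 (0.33 to 3.24), both at an edgeR FDR of 0.983. Without the filter on low counts both passed an FDR of 0.1 for diet averaged over ages, and Slc6a2 also for diet in the young, for age under AL and for age averaged over diets. Of the other transporters, Slc29a4, which takes up serotonin and dopamine at low affinity, was at 9.75 CPM on average and Slc22a3 at 3.58 CPM, with differences with diet of 0.11 (95% interval -0.28 to 0.49) and -0.22 (-0.66 to 0.22).

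Among receptors other than the members, 1 of 3 dopamine, 12 of 14 serotonin, 9 of 9 adrenergic and 3 of 5 histamine and trace amine receptors were tested, and edgeR and DESeq2 called none. At an unadjusted edgeR p under 0.05 there were 2 of 12 serotonin receptors for age averaged over diets, against 11.7% of all genes. For diet averaged over ages there were 2 of 9 adrenergic receptors, against 4.51% of all genes. Drd3 was at 0.557 CPM on average and too low to test. Drd5, the other D1-like receptor, was at 5.57 CPM and differed by 0.06 with age (95% interval -0.29 to 0.4) and by -0.01 with diet (-0.35 to 0.33). Htr2c, a serotonin receptor abundant in choroid plexus, was at 126 CPM, with a difference of 0.08 with age (-0.06 to 0.21). Htr2a, a cortical serotonin receptor, was at 23.6 ± 0.975 CPM (SD, n = 4) in the young and 19.2 ± 1.05 CPM (SD, n = 4) in the old under AL, without overlap, as 1.58% of all genes tested were lower without overlap in old/AL mice. Under EOD it overlapped, at 20.9 to 27.7 CPM in the young and 17.9 to 22.3 CPM in the old (-0.21, 95% interval -0.45 to 0.03). Its age difference averaged over diets was -0.25 (SE 0.0796, edgeR FDR 0.155), past the threshold by limma-voom alone. Adra2c, an adrenergic autoreceptor, was 0.47 lower in young/EOD than in young/AL mice on the log2 scale (95% interval -0.83 to -0.11, edgeR FDR 0.996), and differed by -0.04 in old mice (-0.36 to 0.28). Adra1d differed with diet by 0.0956 in young mice (-0.41 to 0.6) and by -0.55 in old mice (-1.02 to -0.08, edgeR FDR 1.0), with an interaction of -0.65 (-1.34 to 0.04). Averaged over ages Adrb1 differed with diet by -0.28 (-0.51 to -0.04), and the histamine receptors Hrh3 and Hrh1 by -0.21 (-0.42 to 0.01) and 0.05 (-0.18 to 0.28).

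Of the other breakdown enzymes all 10 were tested and neither edgeR nor DESeq2 called any. At an unadjusted edgeR p under 0.05 there were 2 for age averaged over diets (11.7% of all genes). For diet averaged over ages there was 1 (4.51%). The most abundant per length were Sult4a1, at 452 CPM, and Akr1a1, at 299 CPM, and they differed with age by -0.03 (95% interval -0.16 to 0.09) and 0.10 (-0.01 to 0.21). Sult1a1, a sulfotransferase of catechols and phenols, was 0.6 lower in old/EOD than in old/AL mice (-1.09 to -0.12, edgeR FDR 1.0). Of 15 regulators and markers of monoamine neurons, 10 were tested and again neither tool called any. At such a p there were 0 for age (11.7% of all genes) and 1 for diet (4.51%), both averaged. Pitx3 and Foxa2, regulators of dopamine neurons, and Fev, a regulator of serotonin neurons, stayed below the filter, with means of 0.0548, 0.12 and 0.249 CPM. Nr4a2, which specifies dopamine neurons and is also expressed in cortex, differed by -0.06 with age (-0.33 to 0.21), and Ret, a receptor for trophic factors, by -0.03 (-0.31 to 0.25). Slc10a4, a vesicular protein of monoamine and cholinergic neurons, was at 4.46, 5.5, 8.91 and 5.1 CPM in young/AL and at 1.64, 3.44 and 3.55 CPM in young/EOD mice. These groups did not overlap, as 2.05% of all genes tested were lower without overlap in young/EOD mice, the highest value was that of young/AL mouse 3, and the edgeR FDR was 0.996. In old mice Slc10a4 overlapped between the diets, at 3.87 to 5.38 CPM under AL and 2.49 to 5.01 CPM under EOD (-0.29, 95% interval -0.87 to 0.28).

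Downstream of Drd1 and Drd2, all 13 genes of striatal dopamine signalling were tested and edgeR called 0 of them for diet, whether within an age or averaged over ages. DESeq2 and limma-voom called 0 as well. All 13 were nevertheless lower in EOD than in AL mice at both ages, with a median log2 difference of -0.188 in young and -0.175 in old mice, against -0.00324 and 0.00261 over all genes. The young and the old mice are separate animals, while genes of 1 list are not independent of each other. The list was also chosen with earlier results of these data known. The shared direction in these same mice is therefore a description and no separate check. At an unadjusted edgeR p under 0.05 there were 5 genes for the young (4.14% of all genes), 1 for the old (2.58%) and 7 averaged over ages (4.51%). Ppp1r1b, which encodes the dopamine-regulated phosphatase inhibitor DARPP-32, was at 173, 251, 228 and 236 CPM in young/AL and at 167, 131 and 193 CPM in young/EOD mice. In old/AL mice it was at 183, 188, 250 and 229 CPM and in old/EOD mice at 218, 180, 168 and 152 CPM. AL and EOD mice overlapped at both ages, with the lowest brains on EOD. Averaged over ages Ppp1r1b differed by -0.34 (95% interval -0.54 to -0.14, edgeR FDR 0.983) and Pde1b, a phosphodiesterase that is the most abundant of the list per length, by -0.10 (-0.25 to 0.05).

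The size of this difference moved with single mice. Leaving out 1 mouse at a time gave medians of -0.23 to -0.14 in young mice and -0.27 to -0.09 in old mice, with 12 or 13 of the 13 genes lower. In old mice the median was -0.09 without old/AL mouse 3, -0.11 without old/EOD mouse 4 and -0.27 without old/EOD mouse 1. Without the filter on low counts, Ppp1r1b and Adora2a were past the threshold both averaged over ages and in young mice. The summed level of 7 striatal markers, 5 of which are in this list, was 1010 to 1270 CPM under AL and 799 to 1030 CPM under EOD in the young, and 996 to 1240 and 791 to 1200 CPM in the old. Whether the share of striatum in the extracted tissue differed with diet was not tested.

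**Figure D5:**
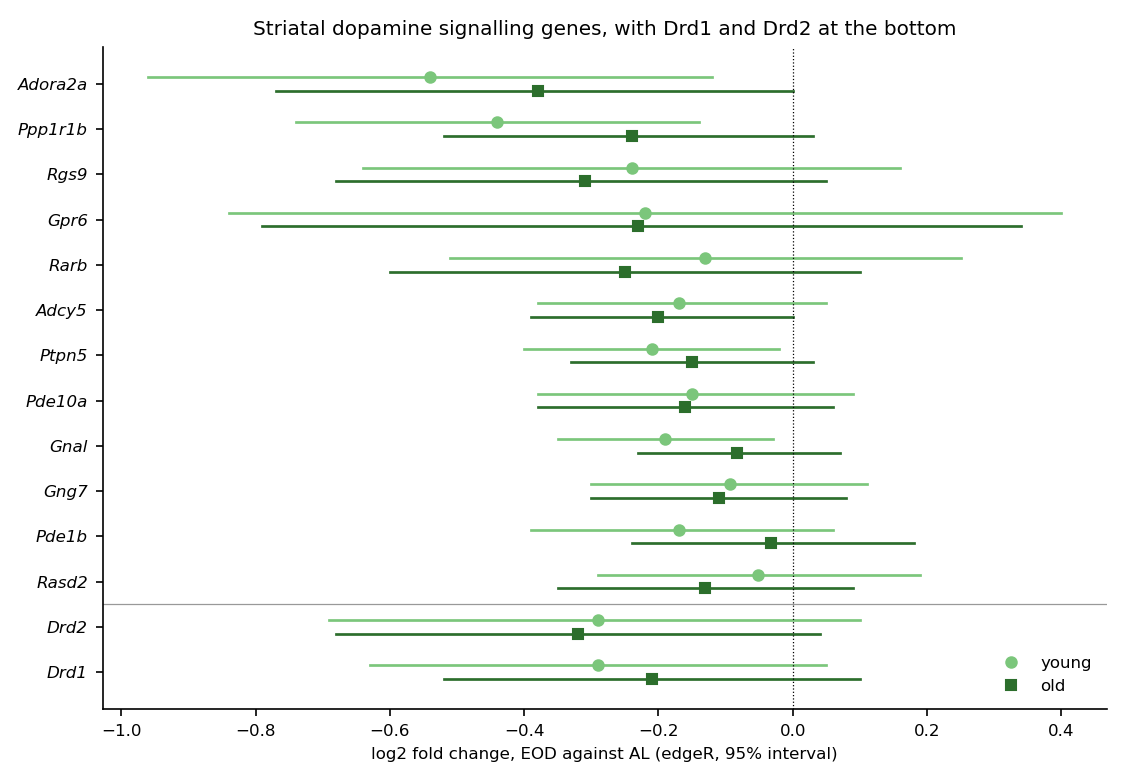
Log2 fold change of EOD against AL mice for 12 of the 13 striatal dopamine signalling genes and for Drd2 and Drd1, in young (circles) and old mice (squares), with 95% intervals (lines). All points lie below 0, with medians over all 13 genes of -0.188 in young and -0.175 in old mice, and no gene passed an edgeR FDR of 0.1.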

How the data were processed

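Whole-brain RNA was sequenced with single-end Illumina reads. Per the file headers and the study's methods, the authors trimmed the reads, aligned them with STAR to GRCm38 and counted unique reads per gene, by strand, with featureCounts 1.5.0-p1 on Ensembl release 79 (minimum mapping quality 5). The deposited values are raw counts per gene, 1 file for each of 15 mice, with no normalization. The headers also carry the option for read pairs, while the study's methods give single-end reads, and the counts were used as deposited. STAR's version is not given in the sources used here.

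Counts were fitted with edgeR 4.0.16 in R 4.3.3 (filterByExpr, TMM, quasi-likelihood F test, 4 group means from all mice). Age within each diet, diet within each age, the interaction and both averaged effects were contrasts of that fit, adjusted by Benjamini-Hochberg over all 15864 genes at an FDR of 0.1. The common biological coefficient of variation was 0.119. CPM used TMM library sizes, and correlations used log2 CPM (prior count 2) with group means removed. P-values measure the spread between these mice, and counting intervals cover counting error only. The fit was tested on simulated counts with known changes.

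Alternatives were other filters (including 10 counts in every mouse), RLE factors, DESeq2 1.42.0, limma 3.58.1 (voom with sample weights), an FDR of 0.05, a replicate block, lane as a covariate, fits of 2 groups and leaving out each mouse. The 10 members were named in every comparison. From each list of related genes were named those called in a comparison within a diet or age or in the interaction, the 2 highest per kilobase and the 1 with the smallest p. For each member the 3 most correlated genes are named. Adora2a, Dbh, Pitx3, Foxa2, Fev, Hdc, Tph1, Aanat, Asmt and Hrh4 were named after their values were seen. 1 gene of the striatal list is counted in its totals and is not reported here by itself. The members and lists were chosen with earlier results of these data known. Files of 1 group were compared for repeat deposits of the same library, and none of 21 pairs was as alike as counting noise alone (chi-square per degree of freedom 3.01 to 16.6). Exon lengths and coordinates are those of the files, and promoters those of RefSeq (GRCm38.p6).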

Additional observations from a re-analysis of the deposited data

Results flagged for a closer look

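Ddc stood out in old/AL mouse 2, at 34.0 CPM against 25.5 to 26.5 CPM in the other old/AL mice. Its gap to the nearest of them was 0.883 of the range of the group, above the 95% critical value of Dixon's test for 4 samples. It was the 1 such value among 30 groups of 4 examined, and chance alone marks about 1 group in 20. Slc6a3 and Slc18a2 were highest of all 15 mice in the same brain, at 41.6 and 39.6 CPM.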

How the results depend on the processing

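Over all genes tested, the count past the FDR of 0.1 depended on the processing while among the members' fold changes only calls of Maob and Ddc did so. Without the low-count filter 444 genes passed for age in AL mice (173 with it), 100 for age in EOD mice (46), 26 and 27 for diet in young and old mice, 26 for the interaction, 653 for age (365) and 65 for diet averaged. DESeq2 gave 266 and 73 genes for age under AL and EOD and 1 for diet in young mice, limma-voom 125 for age under EOD and 2 for diet in old mice, and fits of 2 groups 86 for age under AL. With lane as a covariate 237 genes passed for age averaged and 2 for diet in old mice, and at an FDR of 0.05, 229 for age averaged. Leaving out 1 mouse gave 102 to 221 genes for age under AL, 19 to 76 under EOD and 216 to 425 averaged, and 0 for diet and interaction. The count under AL was 102 without old/AL mouse 3. Under EOD it was 76 without young/AL mouse 3, 19, 21 and 20 without young/EOD mouse 1, 2 or 3 and 24 without old/EOD mouse 2. Averaged it was 222 and 216 without young/EOD mouse 1 or 2. Replicate numbers did not pair the mice: 21 same-number pairs across groups had correlations of -0.113 to 0.113, and 1 of 15 mice correlated best with its own number. With the replicate block 155, 35 and 250 genes passed for age under AL, under EOD and averaged, and 0 for diet and the interaction. Of the 70 member differences 69 were uncalled, and these changed sign 97 times on leaving out a mouse and 21 times under other settings, 8 times by more than their SE. The cause of these differences was not tested. Depth limits Slc6a4 most, with 1 to 122 counts a mouse.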

Other observations

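Other amine pathways left weak traces in these brains. Hdc, which makes histamine in hypothalamic neurons, was at 2.11 to 8.51 CPM, highest in old/AL mouse 3 and next in young/EOD mouse 3 (5.91 CPM), with no call for age or diet. Tph1, the tryptophan hydroxylase of peripheral tissue and the pineal gland, was at 0 to 0.688 CPM. Aanat, a melatonin enzyme, was at 0 to 0.378 CPM, and Asmt, the last melatonin enzyme, had no count in any mouse, which allows up to 0.22 to 0.577 CPM (3 counts) depending on the library. The histamine receptor Hrh4 had no count either.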
